A study of Mus musculus with 12 samples.

Results

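TGF-beta and activin signalling was followed through 10 genes in RNA from whole mouse kidneys at postnatal day 15. The genes, of 55487 gene IDs measured, were taken by role as ligands (Tgfb1, Tgfb2, Tgfb3, Inhba and Inhbb), receptors (Tgfbr1 and Tgfbr2), a secreted antagonist (Fst) and intracellular inhibitors (Smad7 and Skil), and were matched by symbol, 1 gene ID each. These genes, and the pathway and marker lists used below, were chosen with earlier results of these data known. Their counts beside those of all genes are therefore a description and not a test. All 10 genes passed the filter on low counts. The series holds 12 libraries, 3 in each of 4 groups: Hoxb7-Pkd1 KO kidneys, controls of the Pkd1 line, Hoxb7-Cep120 KO kidneys and controls of the Cep120 line. Pkd1 encodes polycystin-1, a membrane protein of the primary cilium, and Cep120 encodes a centriole protein. The Hoxb7-Cre driver is active in the ureteric bud lineage, which forms the collecting ducts, so other cells of a KO kidney are not targeted. Titles call the controls het and the genotype label calls them WT, so whether they carry a deleted allele or the Cre is not settled by the labels. No label ties a library to an animal, and p-values therefore measure library-to-library spread, which may be technical.

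TGF-beta ligands are secreted in a latent form and, once released, bind a type II receptor that activates a type I receptor, which phosphorylates Smad2 and Smad3. Activins, dimers of the subunits encoded by Inhba and Inhbb, reach the same Smads through their own receptors and are bound and neutralised by follistatin, the product of Fst. The pathway is known in the kidney for driving fibroblasts to make matrix, and Smad7 and SnoN, the product of Skil, restrain it from inside the cell.

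Library totals were 23070736 to 31837973 estimated counts. In 6 libraries (Pkd1 control 3, Cep120 KO 1 to 3 and the first and second Cep120 controls) 30289 to 32705 genes were detected, against 23532 to 25652 in the other 6. CPM values are counts scaled by library size and TMM factors, but those of Xist and Y-linked RNA use the library total alone. Xist was below 1 CPM in Pkd1 KO 1 to 3 and Cep120 KO 1 and 2, and at 53.6 to 193 CPM in the other 7 libraries. Pkd1 control 3 held both Xist, at 53.6 CPM, and Y-linked RNA, at 104 CPM, against 0.0628 and 0.0433 CPM of Y-linked RNA in Pkd1 controls 1 and 2. Cep120 KO 3 and Cep120 controls 1 and 2 also held both, with Y-linked RNA at 17.4, 27.7 and 11.7 CPM. Within the Pkd1 line the absence of Xist and the KO label thus cannot be told apart. The targeted genes did not check the labels. Pkd1 was at 36.4, 26.2 and 23.9 CPM in the libraries labelled Pkd1 KO, against 16.1, 13.9 and 21.6 CPM in the Pkd1 controls. Cep120 was at 16.6, 20.4 and 16.6 CPM in the libraries labelled Cep120 KO, against 16.2, 18.7 and 13.7 CPM in the Cep120 controls. Neither was lower under its own KO label, and Pkd1 was called higher there (log2 fold change 0.74, edgeR adjusted p = 0.00952). Every direction given here rests on the labels.

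The Pkd1 comparison asks how these genes differ in kidneys labelled Pkd1 KO, which the design sets beside Cep120 loss as loss of ciliary signalling. In the libraries labelled Pkd1 KO, 8 of the 10 genes were higher and 0 were lower (edgeR quasi-likelihood test, Benjamini-Hochberg adjusted p under 0.05), beside 22.1% of the 19890 genes tested that were higher and 22.4% that were lower. Both activin subunits rose most, Inhbb 17.3-fold and Inhba 10.6-fold, followed by Tgfb3 at 8.74-fold and Fst at 7.63-fold. Tgfb2, the receptors Tgfbr1 and Tgfbr2, and Skil rose by 2.98-fold, 2.32-fold, 1.79-fold and 1.55-fold. Tgfb1 and Smad7 did not pass the test. The median log2 fold change of the 10 genes was 1.39, beside -0.04 over all genes tested. Every KO library lay above every control for the same 8 genes, which holds for 27.4% of all genes.

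**Figure D1:**
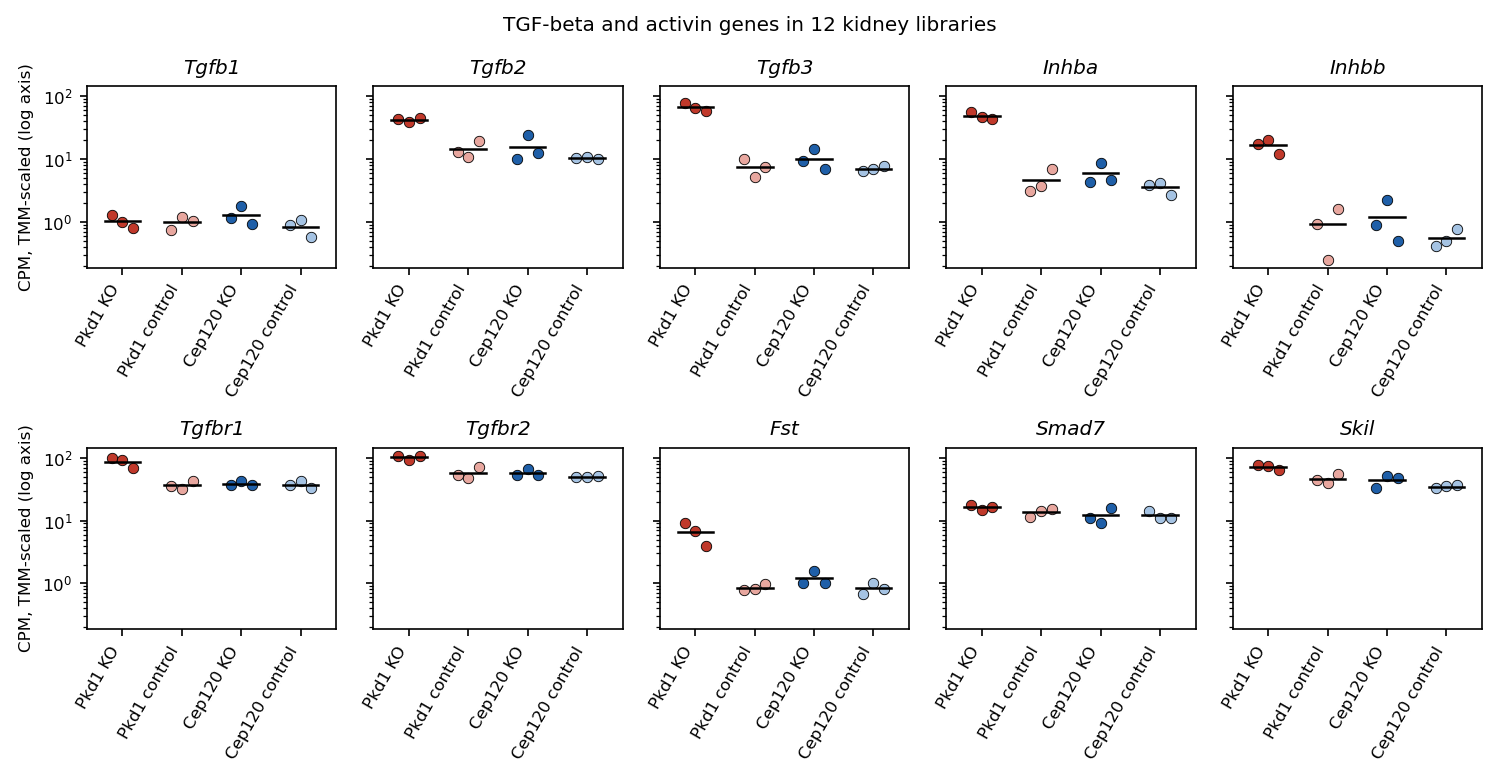
CPM of each gene on a log axis in 4 groups of 3 libraries (points), with group means as bars. The Pkd1 KO points lie above all Pkd1 control points for 8 of 10 genes, while those of Tgfb1 and Smad7 overlap, and Cep120 KO 2 is the highest Cep120 KO point for 9 genes.

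The promoters of 3 ligand genes are shown as examples: in the Pkd1 line Inhba and Tgfb2 rose and Tgfb1 did not pass. Each window runs from 250 bases before to 50 bases after the RefSeq transcription start, on the GRCm38.p6 build, and is written 5′ to 3′ on the gene's strand. Capitals mark the Smad element CAGAC, the GC box GGGCGG and the TATA box TATAAA on either strand. The Inhba window is chr13:16011601-16011900 on the plus strand, that of Tgfb2 is chr1:186705940-186706239 on the minus strand, and that of Tgfb1 is chr7:25686752-25687051 on the plus strand.
Inhba: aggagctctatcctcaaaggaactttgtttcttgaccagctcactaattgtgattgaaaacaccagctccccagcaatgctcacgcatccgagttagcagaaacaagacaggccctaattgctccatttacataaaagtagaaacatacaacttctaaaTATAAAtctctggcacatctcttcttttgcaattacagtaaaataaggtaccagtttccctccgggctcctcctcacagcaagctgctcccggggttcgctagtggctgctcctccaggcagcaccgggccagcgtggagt
Tgfb2: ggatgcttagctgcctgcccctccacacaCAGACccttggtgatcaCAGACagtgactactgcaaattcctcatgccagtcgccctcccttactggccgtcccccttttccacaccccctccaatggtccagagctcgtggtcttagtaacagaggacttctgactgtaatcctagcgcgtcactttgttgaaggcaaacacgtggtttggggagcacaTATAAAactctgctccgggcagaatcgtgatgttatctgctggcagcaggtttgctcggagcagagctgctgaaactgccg
Tgfb1: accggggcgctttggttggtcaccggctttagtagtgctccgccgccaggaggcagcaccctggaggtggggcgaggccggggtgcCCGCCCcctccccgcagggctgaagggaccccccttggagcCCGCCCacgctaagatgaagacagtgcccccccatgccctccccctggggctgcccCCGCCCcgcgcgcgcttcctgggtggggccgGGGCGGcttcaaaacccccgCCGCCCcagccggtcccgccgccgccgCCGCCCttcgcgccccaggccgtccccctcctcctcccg

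The windows differed in composition, with 47.7% G and C bases for Inhba, 54.3% for Tgfb2 and 77.0% for Tgfb1. The Tgfb1 window held 6 GC boxes and no TATA box. That of Tgfb2 held a TATA box 31 bases before the start and CAGAC at 221 and 204 bases before it, and that of Inhba held TATAAA 91 bases before the start and no Smad element. Of all 32851 RefSeq windows of this length, 49.6% hold the Smad element, 35.7% the GC box and 13.6% the TATA box. RefSeq windows were found for 6 of the 10 genes, 7 windows in all. The search left out a chromosome that the shares over all windows kept. For a gene on that chromosome, the lack of a window here thus does not show that RefSeq has none. Why other genes had no window was not looked into. Among the other genes that rose, Inhbb had a window with 64.3% G and C bases, 1 GC box and neither TATA box nor Smad element, and the first of the Tgfbr1 windows had 74.7%, 2 GC boxes and no TATA box. The second Tgfbr1 window and that of Tgfbr2 held 1 Smad element each and neither of the other motifs marked here. The Smad palindrome GTCTAGAC (0.213% of all windows), the AP-1 element TGANTCA (7.81%), the cyclic AMP element TGACGTCA (1.79%) and the TEAD element GGAATG (14.7%) matched none of these 7, and no match overlapped another.

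Among the TGF-beta ligands, Tgfb3 (ENSMUSG00000021253) was at 77.2, 64.1 and 59.2 CPM in Pkd1 KO 1 to 3, against 10.03, 5.22 and 7.52 CPM in Pkd1 controls 1 to 3. The groups were far apart, and the spread within each was small beside the gap. The log2 fold change was 3.13 (SE 0.27, edgeR adjusted p = 3.26e-06). Tgfb2 (ENSMUSG00000039239), whose product binds the type II receptor only weakly without the co-receptor Tgfbr3, was at 44.2, 38.4 and 45.5 CPM in Pkd1 KO, against 12.9, 10.7 and 19.3 CPM in the Pkd1 controls. Pkd1 control 3 was the highest control, still below every KO library. The log2 fold change was 1.58 (SE 0.29, adjusted p = 0.000732).

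Tgfb1 (ENSMUSG00000002603), the ligand most often linked to kidney fibrosis, was at 1.29, 0.999 and 0.790 CPM in Pkd1 KO, against 0.749, 1.21 and 1.02 CPM in the Pkd1 controls. These libraries overlapped (log2 fold change 0.06, SE 0.39, adjusted p = 0.916). Tgfb1 was a weak gene here, with 22 to 38 estimated counts in a Pkd1 KO library and 23 to 27 in a Pkd1 control.

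Of the activin subunits, Inhba (ENSMUSG00000041324), which encodes the beta A chain, was at 55.5, 46.8 and 43.5 CPM in Pkd1 KO, against 3.16, 3.77 and 6.84 CPM in the Pkd1 controls. All KO libraries stood well above the highest control, Pkd1 control 3. The log2 fold change was 3.40 (SE 0.33, adjusted p = 6.87e-06). Inhbb (ENSMUSG00000037035), which encodes the beta B chain, was at 17.5, 20.1 and 12.02 CPM in Pkd1 KO, against 0.912, 0.251 and 1.63 CPM in the Pkd1 controls. The controls varied widely, from 5 to 43 estimated counts, but none came near a KO library. The log2 fold change was 4.11 (SE 0.57, adjusted p = 9.90e-05), or 26.1-fold in place of 17.3-fold without Pkd1 control 3.

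Both receptors had smaller fold changes than Tgfb2, Tgfb3 and the activin subunits. Tgfbr1 (ENSMUSG00000007613), the type I receptor kinase, was at 98.0, 93.1 and 68.4 CPM in Pkd1 KO, against 36.0, 32.4 and 43.5 CPM in the Pkd1 controls. Pkd1 KO 3 was the lowest KO library and remained above all controls (log2 fold change 1.21, SE 0.16, adjusted p = 6.70e-05). Tgfbr2 (ENSMUSG00000032440), the type II receptor that binds ligand, was at 105, 93.4 and 108 CPM in Pkd1 KO, against 52.4, 48.6 and 70.4 CPM in the Pkd1 controls. The groups did not overlap, and the gap was narrowest to Pkd1 control 3 (log2 fold change 0.84, SE 0.14, adjusted p = 0.000459).

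Fst (ENSMUSG00000021765), which encodes the activin-binding protein follistatin, was at 9.04, 6.77 and 3.88 CPM in Pkd1 KO, against 0.782, 0.804 and 0.983 CPM in the Pkd1 controls. KO libraries differed among themselves by more than the controls did, and all lay above them. The log2 fold change was 2.93 (SE 0.35, adjusted p = 3.13e-05). Skil (ENSMUSG00000027660), whose product SnoN represses transcription by Smads, was at 77.5, 73.7 and 63.4 CPM in Pkd1 KO, against 43.9, 39.1 and 55.1 CPM in the Pkd1 controls. It showed the smallest of the 8 rises, with groups that did not overlap (log2 fold change 0.64, SE 0.17, adjusted p = 0.00844). Smad7 (ENSMUSG00000025880), the inhibitory Smad that TGF-beta itself induces, was at 17.8, 14.98 and 16.2 CPM in Pkd1 KO, against 11.5, 14.5 and 15.3 CPM in the Pkd1 controls. Its groups overlapped (log2 fold change 0.25, SE 0.20, adjusted p = 0.327).

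All 8 calls held without each library in turn. Pkd1 control 3 was the highest control for 8 of 10 genes, beside 45.1% of all genes. Without it the remaining Pkd1 libraries belong to one class of detected genes, and the median log2 fold change of the 10 genes was 1.57. With the absence of Xist as a term in the fit, 4 genes remained called (Tgfb3, Tgfbr1, Inhba and Fst), and with Y-linked RNA as a term 5 (these and Inhbb). The calls of Tgfb2, Tgfbr2 and Skil ended under both terms, with log2 fold changes of 1.11 and 0.93 for Tgfb2, 0.69 and 0.49 for Tgfbr2, and 0.81 and 0.51 for Skil. That of Inhbb ended under the Xist term alone, at 2.47.

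Markers of other cells moved with these genes. The summed CPM of 12 myofibroblast and stromal markers was 6665 to 10833 in Pkd1 KO, against 1907 to 3142 in the Pkd1 controls, and 10 of the 12 rose. That of 8 macrophage markers was 684 to 999 CPM in Pkd1 KO, against 102 to 267 CPM in the Pkd1 controls, and all 8 rose. That of 5 injured tubule markers was 966 to 1191 CPM in Pkd1 KO, against 62.3 to 204 CPM in the Pkd1 controls, and 3 of the 5 rose. Most of this sum in Pkd1 KO was Lcn2, at a mean of 965 CPM, against 40.7 CPM in the Pkd1 controls. Havcr1 and Vcam1 did not pass. The 7 proximal tubule markers all fell, to a sum of 419 to 611 CPM in Pkd1 KO, against 4225 to 6979 CPM in the Pkd1 controls. Pkd1 control 3 had the highest control sum of the first 3 lists and the lowest of the last. None of these markers was at 0 in any library. Over all genes tested 22.1% were higher and 22.4% lower in this comparison, the background of every count in this paragraph. No list was tested against these shares. Of other lists, principal cell genes went 5 up and 1 down of 6, and intercalated cell genes 1 up and 3 down of 5. Falls were counted for 5 of 6 endothelial, 2 of 3 thick ascending limb, 2 of 3 distal convoluted tubule and 2 of 4 podocyte genes, with 0 rises, and Pvalb was at 0 in some libraries. In whole-kidney RNA, more cells of a type and more RNA per cell cannot be told apart, and the part of these cells in the changes was not tested.

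The Cep120 comparison asks which pathways move after Cep120 loss. None of the 10 genes passed the edgeR test in the libraries labelled Cep120 KO, beside 0.0% of all genes tested. The unadjusted p was under 0.05 for 1 of the 10, Inhba, and for 6.04% of all genes, and DESeq2 and limma voom also called 0 of the 10. Fold changes above 0 were found for 9 of 10 genes, with a median log2 value of 0.53, beside 51.6% of all genes and a median of 0.01, and for 7 of 10 with the absence of Xist as a term. Cep120 KO 2 was the highest KO library for 9 of the 10, all but Smad7, beside 33.3% of all genes. Without Cep120 KO 2 the median was 0.21, and the 10 values ran from -0.01 to 0.32.

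**Figure D2:**
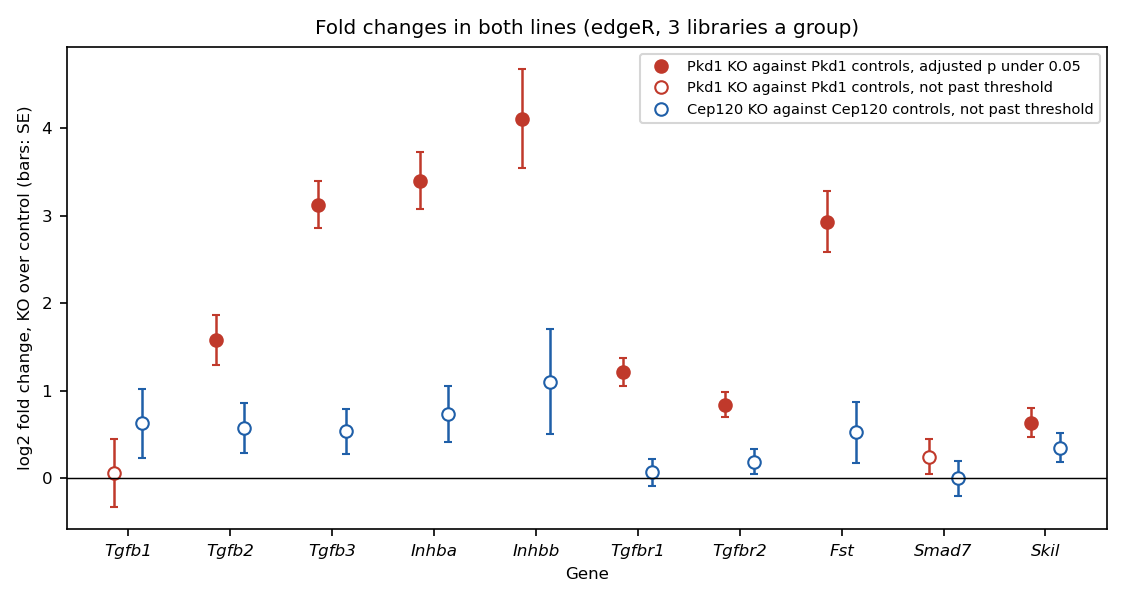
Log2 fold change of KO over control for each gene, with standard errors as bars, in the Pkd1 line (red) and the Cep120 line (blue). Filled points passed an adjusted p of 0.05: 8 in the Pkd1 line, with Inhbb highest at 4.11, and 0 in the Cep120 line, where Inhbb was at 1.10.

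Of the ligands, Tgfb2 was at 9.96, 24.3 and 12.4 CPM in Cep120 KO 1 to 3, against 10.4, 10.8 and 10.2 CPM in Cep120 controls 1 to 3. Cep120 KO 2 was above every control and Cep120 KO 1 below all of them (log2 fold change 0.58, SE 0.29, adjusted p = 0.757). Tgfb3 was at 9.39, 14.3 and 6.92 CPM in Cep120 KO, against 6.42, 6.96 and 7.75 CPM in the Cep120 controls. The ranges overlapped through Cep120 KO 3 (log2 fold change 0.54, SE 0.26, adjusted p = 0.757). Tgfb1 was at 1.15, 1.79 and 0.923 CPM in Cep120 KO, against 0.882, 1.06 and 0.568 CPM in the Cep120 controls, an overlap again (log2 fold change 0.62, SE 0.39, adjusted p = 0.757).

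Inhba was at 4.31, 8.79 and 4.65 CPM in Cep120 KO, against 3.86, 4.23 and 2.64 CPM in the Cep120 controls. It and Tgfbr2 were the only 2 of the 10 genes with every Cep120 KO library above every control, which holds for 8.64% of all genes, but the gap of Inhba was narrow (log2 fold change 0.73, SE 0.32, adjusted p = 0.757). With no filter on low counts Inhba was called, at 0.71 (adjusted p = 0.0361). Inhbb was at 0.885, 2.21 and 0.497 CPM in Cep120 KO, against 0.420, 0.488 and 0.771 CPM in the Cep120 controls. Its log2 fold change of 1.10 (SE 0.60, adjusted p = 0.757) was 0.29 without Cep120 KO 2.

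No receptor or inhibitor passed the test either. Tgfbr2 was at 52.5, 65.7 and 53.3 CPM in Cep120 KO, against 49.3, 49.7 and 51.5 CPM in the Cep120 controls (log2 fold change 0.19, adjusted p = 0.773). Tgfbr1 was at 37.3, 42.9 and 36.6 CPM in Cep120 KO, against 36.6, 42.5 and 32.7 CPM in the Cep120 controls (log2 fold change 0.06, adjusted p = 0.931). Fst was at 1.0, 1.56 and 1.03 CPM in Cep120 KO, against 0.672, 1.02 and 0.811 CPM in the Cep120 controls (log2 fold change 0.52, adjusted p = 0.761). Of these, only the groups of Tgfbr2 lay apart, with Cep120 KO 2 highest in each gene. Skil was at 32.8, 51.7 and 47.8 CPM in Cep120 KO, against 32.5, 35.1 and 36.3 CPM in the Cep120 controls (log2 fold change 0.35, adjusted p = 0.757). Smad7 was at 11.1, 9.28 and 15.9 CPM in Cep120 KO, against 14.4, 11.1 and 10.8 CPM in the Cep120 controls, with the highest and lowest of the 6 values both in KO.

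Cep120 KO 2 also stood apart in markers. Its myofibroblast and stromal sum was 3427 CPM, against 1817 and 1994 CPM in Cep120 KO 1 and 3 and 1476 to 2084 CPM in the Cep120 controls. Its injured tubule sum was 228 CPM, against 71.2 and 79.6 CPM in Cep120 KO 1 and 3 and 60.7 to 95.3 CPM in the Cep120 controls. Macrophage sums did not follow, at 228 CPM in Cep120 KO 2, beside 244 and 129 CPM in Cep120 KO 1 and 3. No marker of these lists passed the test in the Cep120 comparison. The part of these markers in the values of Cep120 KO 2 was not tested.

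Whether the lines differed was tested by the difference of their fold changes, Pkd1 minus Cep120. It was called for 6 of 10 genes, all higher in the Pkd1 line, beside 13.9% of all genes. These were Inhbb (3.01, SE 0.82, adjusted p = 0.0166), Inhba (2.67, SE 0.45, adjusted p = 0.00107), Tgfb3 (2.59, SE 0.37, adjusted p = 0.000345), Fst (2.41, SE 0.49, adjusted p = 0.00336), Tgfbr1 (1.15, SE 0.22, adjusted p = 0.00265) and Tgfbr2 (0.65, SE 0.20, adjusted p = 0.0296). The call of Tgfbr2 ended under 13 of 24 alternatives, among them 9 of the 12 that leave out a library. Tgfb2 had a difference of 0.999 (SE 0.40, adjusted p = 0.0786) and was called without Cep120 KO 2 (1.46, adjusted p = 0.00350) or Pkd1 control 3 (1.25, adjusted p = 0.0300). For Tgfb1 (-0.57), Smad7 (0.25) and Skil (0.29) the difference did not pass. Over all genes 2764 differences were higher and 2834 lower, or 2221 and 3427 under upper quartile scaling.

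Levels of different genes were compared as TPM, a measure of transcript abundance that allows for length and depth. In Pkd1 KO, Inhba was the highest of the 10 genes, at 40.4, 33.2 and 32.9 TPM, and lay above every value of the next gene, Tgfb3, at 28.7, 22.4 and 21.8 TPM. In the Pkd1 controls Inhba was sixth, at 1.91, 2.07 and 4.46 TPM, below Skil, Tgfbr2, Tgfbr1, Tgfb2 and Smad7, and in the Cep120 controls it was sixth as well, at 2.21, 2.999 and 1.58 TPM. From Tgfb3 downward in Pkd1 KO the order ran Tgfbr1, Tgfbr2, Tgfb2 and Skil, each overlapping its neighbour. After a step below Skil came Inhbb, Fst and Smad7, which overlapped in turn, and Tgfb1 was last and apart, at 0.773, 0.732 and 0.505 TPM. In Cep120 KO the receptors led, with Tgfbr2 at 8.60 to 11.97 TPM and Tgfbr1 at 8.54 to 11.4 TPM, and neighbours overlapped except for the step of Tgfb3 above Tgfb1. In the Pkd1 controls, too, only the step of Tgfb3 above Fst separated neighbours, and in the Cep120 controls there were 3 steps, of Skil above Smad7, Tgfb3 above Fst and Tgfb1 above Inhbb.

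The shares of Tgfb2 and Tgfb3 in TGF-beta ligand RNA lay apart between KO and control in the Pkd1 line and overlapped in the Cep120 line. With n = 3 each, the exact permutation test cannot give a p below 0.10, so no measure could pass it. The test therefore decides neither these shares nor the ratios below, and no conclusion is drawn from it. Tgfb1, Tgfb2 and Tgfb3 together came to 38.3 to 48.3 TPM in Pkd1 KO, against 4.99 to 9.70 TPM in the Pkd1 controls. Tgfb3 made up 51.9% to 59.5% of that sum in Pkd1 KO, against 27.7% to 39.2% in the Pkd1 controls, and Tgfb2 made up 38.9% to 46.9% in Pkd1 KO, against 55.8% to 65.9% in the Pkd1 controls. Neither range overlapped, and the shares mirror each other because Tgfb1 is small (two-sided exact permutation test, n = 3 each, p = 0.10, the smallest this design allows, and 0.50 adjusted over 10 such tests). In the Cep120 line the Tgfb3 share overlapped, at 30.9% to 38.8% in KO, against 34.4% to 41.4% in the controls. The ratio of Inhba to Fst, ligand subunit to antagonist, overlapped too, at 5.02 to 8.47 in Pkd1 KO, against 2.88 to 6.03 in the Pkd1 controls (exact p = 0.50). Tgfbr2 over Tgfbr1 was 0.727 to 1.13 in Pkd1 KO, against 0.965 to 1.08 in the Pkd1 controls (exact p = 0.40). Adjusted over the 10 tests, both were at 0.556.

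**Figure D3:**
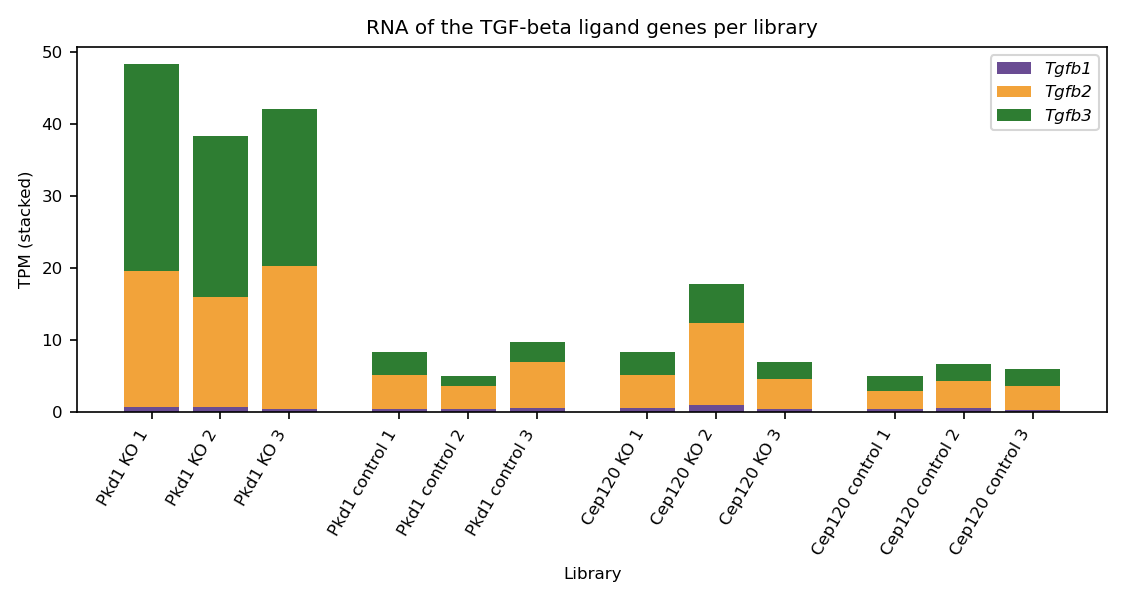
TPM of Tgfb1, Tgfb2 and Tgfb3 stacked in each of the 12 libraries. Pkd1 KO bars reach 38.3 to 48.3 TPM, with Tgfb3 the largest share, against 4.99 to 9.70 TPM in the Pkd1 controls, where Tgfb2 is the largest, and Cep120 KO 2 stands at 17.9 TPM.

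For Tgfb1, Tgfb3, Inhbb, Fst and Smad7 all transcripts were at hand, and Tgfb1 and Fst had counts on retained-intron transcripts, which keep an intron and are not annotated as coding. Retained introns took 52.6%, 17.1% and 13.6% of Tgfb1 counts in Pkd1 KO 1 to 3, against 21.7%, 50% and 70.4% in Pkd1 controls 1 to 3. They took 60%, 74.5% and 76.9% in Cep120 KO, against 61.9%, 73.1% and 42.9% in the Cep120 controls. The share followed the number of genes detected, at 60% to 76.9% in the 6 libraries with many detected genes and 13.6% to 52.6% in the other 6. Counted from protein-coding transcripts alone, Tgfb1 had 18, 25.7 and 19 counts in Pkd1 KO, against 18, 12 and 8 in the Pkd1 controls, and its log2 fold change was 0.51 (adjusted p = 0.394) in place of 0.06.

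Fst had 226.5, 182.5 and 92.5 protein-coding counts in Pkd1 KO, against 21.7, 8.5 and 18 in the Pkd1 controls, and 8.3, 9.2 and 8.2 in Cep120 KO, against 4.5, 9.8 and 16 in the Cep120 controls. Its rise in Pkd1 KO was 3.16 on the log2 scale when counted this way. The Cep120 value changed sign, at -0.51 (adjusted p = 0.805) in place of 0.52. Retained introns took 67.9% to 80.8% of Fst counts in Cep120 KO, against 71.9%, 60.6% and 19.9% in Cep120 controls 1 to 3. Cep120 control 3 is the library of that line with few detected genes. Over both lines the share by counts was 30.6% to 80.8% with many detected genes and 9.504% to 46.7% with few. By TPM it was 64.8% to 81.5% in Cep120 KO, against 50.9% to 57.4% in the Cep120 controls. The share of Fst depended on the unit: in Pkd1 KO it was 13.1% to 15.2% by counts and 37.9% to 41.8% by TPM, and in the Pkd1 controls 9.504% to 46.7% by counts and 8.43% to 77.9% by TPM. The transcript counts behind Tgfb2, Tgfbr1, Tgfbr2, Inhba and Skil cover only part of their gene counts and were not analysed here.

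**Figure D4:**
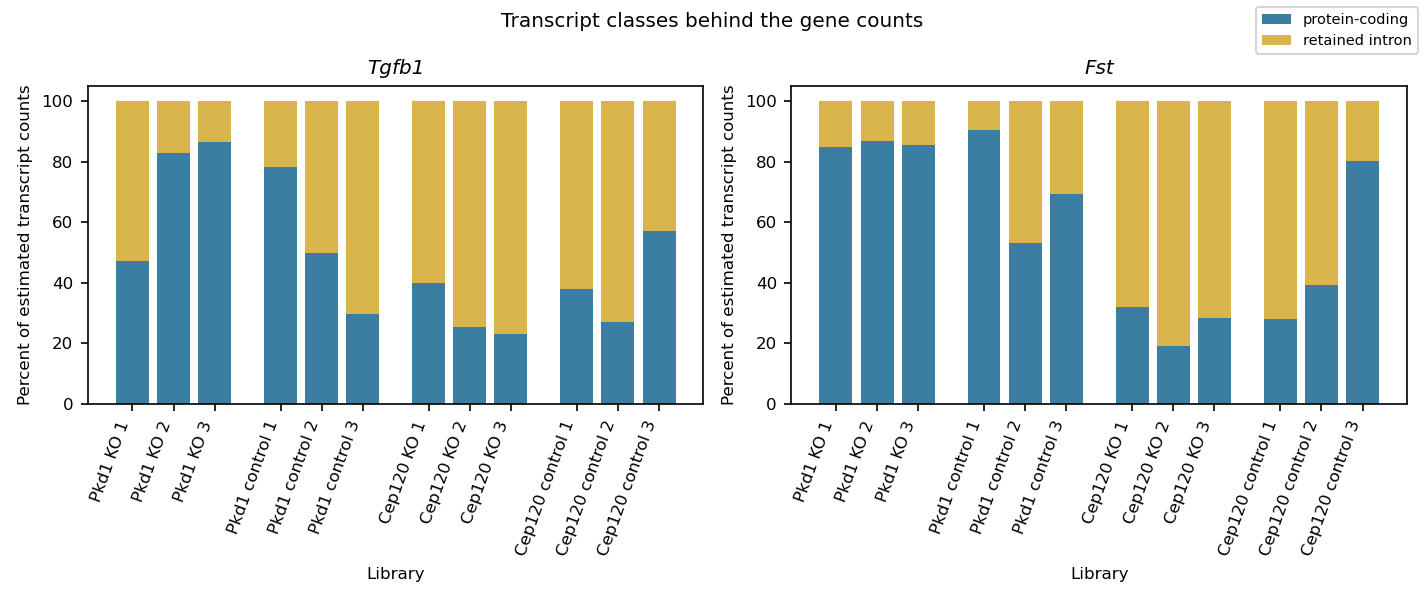
Percent of the estimated transcript counts of Tgfb1 and Fst on protein-coding and retained-intron transcripts in each library. In Cep120 KO retained introns take 60% to 76.9% of Tgfb1 and 67.9% to 80.8% of Fst, while in Pkd1 KO they take 13.1% to 15.2% of Fst by counts, or 37.9% to 41.8% by TPM. The Cep120 KO libraries have many detected genes and the Pkd1 KO libraries few.

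Around these genes, 61 others of the pathway were listed by role, likewise with earlier results known, of which 58 were tested. In Pkd1 KO 36 rose, 5 fell and 17 did not pass, beside 22.1% higher and 22.4% lower of all genes, and in Cep120 KO 0 passed. The Pkd1 counts were 35 rises and 4 falls without Pkd1 control 3, 13 and 2 with the Xist term, and 20 and 4 with the Y-linked term. With the Xist term 2002 of all 19890 genes were called in either direction, and with the Y-linked term 4547, against 8839 in the main fit. Each count by list below is from the main fit and stands beside those 22.1% and 22.4% of all genes. Of 4 other genes of the ligand family tested 2 rose and 2 fell. The list also holds partner chains and relatives of the ligands, so its rises do not stand for more activating ligand. Gdf15, a stress-induced ligand, was at 16.1, 22.5 and 39.0 CPM in Pkd1 KO, against 4.59, 4.97 and 7.26 CPM in the Pkd1 controls (log2 fold change 2.21, SE 0.36, adjusted p = 0.000330). Inhbc, which encodes the activin beta C chain, had 0 counts in each Pkd1 KO library, against 12, 14 and 15 counts in the Pkd1 controls, and was at least 5.43-fold lower against a floor of 3 counts per library (adjusted p = 0.000326).

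Of 12 genes of latent TGF-beta storage and activation 6 rose and 2 fell, beside 22.1% higher and 22.4% lower of all genes. Thbs1, thrombospondin-1, which can activate latent TGF-beta, was at 585, 465 and 318.5 CPM in Pkd1 KO, against 55.2, 41.9 and 71.2 CPM in the Pkd1 controls (log2 fold change 3.02, SE 0.30, adjusted p = 8.26e-06). Itgb8, a subunit of an integrin that also activates it, was at 10.2, 10.2 and 10.6 CPM in Pkd1 KO, against 50.2, 44.1 and 52.6 CPM in the Pkd1 controls (log2 fold change -2.24, SE 0.11, adjusted p = 1.39e-07). The activators thus went opposite ways, with groups far apart in both.

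Of 7 other receptors 2 rose and 0 fell, beside 22.1% higher and 22.4% lower of all genes. The rises thus lie near the share over all genes. They were led by Tgfbr3, the co-receptor betaglycan, at 33.5, 32.2 and 39.0 CPM in Pkd1 KO, against 22.4, 19.3 and 22.7 CPM in the Pkd1 controls (log2 fold change 0.70, adjusted p = 0.00100). Of 5 other antagonists 4 rose and 0 fell. Fstl3, a follistatin relative that binds activin, was at 52.5, 49.8 and 35.4 CPM in Pkd1 KO, against 14.9, 14.02 and 13.9 CPM in the Pkd1 controls (log2 fold change 1.69, adjusted p = 4.93e-06). No group of these genes overlapped its controls.

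Of 4 Smad transducers 2 rose, led by Smad2 at 48.9, 53.9 and 52.2 CPM in Pkd1 KO, against 29.1, 28.0 and 31.4 CPM in the Pkd1 controls (log2 fold change 0.81, adjusted p = 4.11e-05). Of 10 other negative regulators 5 rose and 1 fell. The shares over all genes, for both lists, were 22.1% higher and 22.4% lower. Tgif1, a corepressor of Smads, was at 94.2, 92.7 and 71.9 CPM in Pkd1 KO, against 19.1, 23.6 and 32.4 CPM in the Pkd1 controls (log2 fold change 1.79, adjusted p = 2.08e-05). Bambi, a decoy receptor without a kinase domain, was the one that fell, at 10.5, 15.3 and 13.96 CPM in Pkd1 KO, against 27.6, 37.1 and 25.3 CPM in the Pkd1 controls (log2 fold change -1.18, adjusted p = 0.000134). Its groups did not overlap.

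Of 16 target genes of TGF-beta 15 rose and 0 fell, beside 22.1% higher and 22.4% lower of all genes. The median of the 16 on the log2 scale was 1.76. Cdkn1a, which encodes the cell cycle inhibitor p21 and is also a target of p53, was at 200, 196 and 201 CPM in Pkd1 KO, against 49.4, 44.4 and 47.7 CPM in the Pkd1 controls (log2 fold change 2.08, SE 0.14, adjusted p = 7.90e-07). Its 3 KO values were nearly equal and all far above the controls. Snai2, a transcription factor, was the one that did not pass (log2 fold change 0.27, adjusted p = 0.385). In Cep120 KO the median of the 16 was 0.25, and the difference between the lines was called for 8 of them, all higher in the Pkd1 line, beside 13.9% of all genes. Tagln, Col1a1 and Postn of this list also count among the stromal markers.

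**Figure D5:**
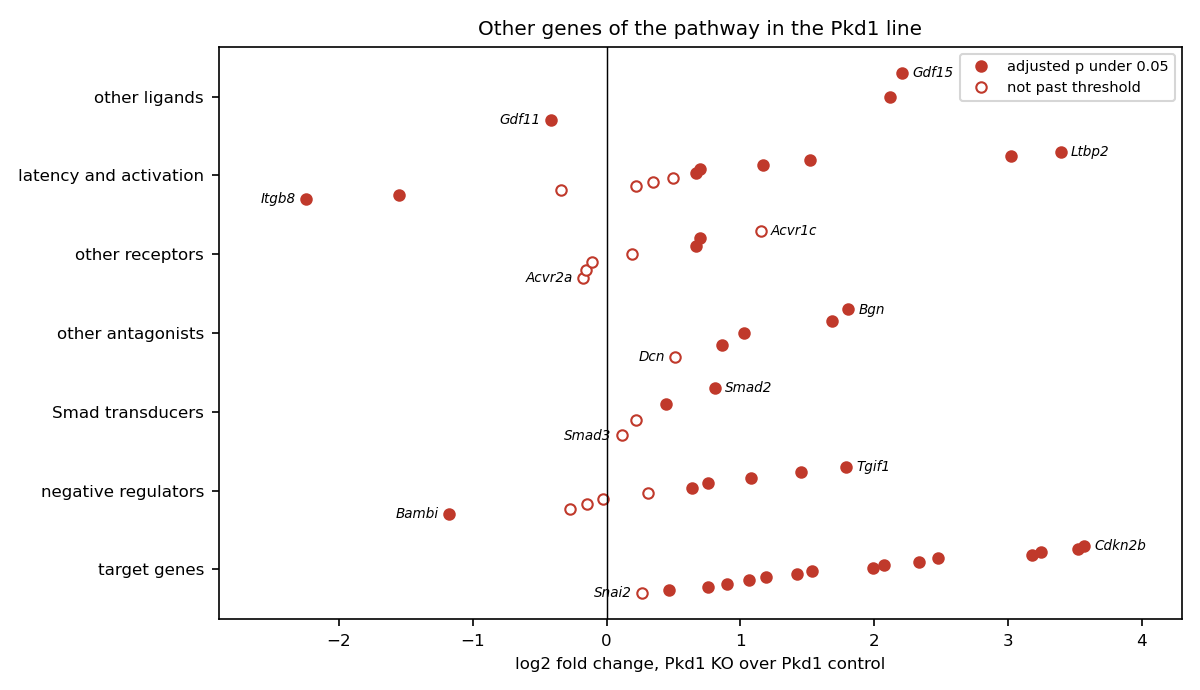
Log2 fold change of Pkd1 KO over Pkd1 control for the tested genes of 7 lists, filled where the adjusted p was under 0.05, with the lowest and highest gene of each list named. Inhbc, at 0 counts in Pkd1 KO, is not drawn. Of the 16 target genes 15 are filled and lie above 0, and Itgb8 lies lowest at -2.24.

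The genes whose profile over the 12 libraries was nearest were sought among 13612 genes, by the root mean square difference of centred log2 CPM. Frzb (0.17) and F3 (0.19) were nearest to Inhba, Sulf1 (0.38) and Col12a1 (0.52) to Inhbb, Thbs1 (0.27) and Megf6 (0.28) to Tgfb3, and Fblim1 (0.17) and Slc25a24 (0.17) to Tgfb2. Col7a1 (0.19) and Thbs1 (0.25) were nearest to Fst, C1qtnf6 (0.09) and Abcg1 (0.10) to Tgfbr1, Rnf122 (0.07) and Ccdc102a (0.10) to Tgfbr2, and Esyt2 (0.11) and Zcchc24 (0.12) to Skil. The spread of a profile itself, on the same scale, was 1.55 for Inhba, 2.01 for Inhbb, 1.37 for Tgfb3 and 0.42 for Skil. For Tgfb1, Per3 (0.21) and Slc17a4 (0.22) were nearest, beside a spread of 0.38, and for Smad7, 5730480H06Rik (0.15) and Fbxo33 (0.15), beside 0.28.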

How the data were processed

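RNA was measured in 12 whole-kidney libraries. Per the labels' protocols, total RNA was extracted from ground kidneys and amplified as cDNA (SMARTer Ultra Low). The tools in the submitters' processing notes include Salmon 0.8.2, STAR 2.5.1a and featureCounts 1.4.6-p5, with the mm9 build, but no tool is tied to a table. The authors deposited estimated counts per gene and per transcript, TPM per gene and per transcript, and moderated log2 CPM, the last used as an alternative input. Use of strand in counting is not stated in those sources.

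Of 55774 gene lines, 287 repeats were left out, leaving 55487 gene IDs. Rounded estimated counts were fitted with edgeR 4.0.16 in R 4.3.3 (filterByExpr, 19890 genes, TMM, 1 quasi-likelihood fit of 4 groups). Adjusted p-values are Benjamini-Hochberg values over all genes tested, with a threshold of 0.05. CPM values are scaled by TMM, except those of Xist and Y-linked RNA, which use the library total. Permutation tests used scipy 1.17.1. The fit was tested on simulated counts. The members and the pathway and marker lists were chosen with earlier results of these data known. From each pathway list the text names the gene with the smallest p of the Pkd1 comparison in each direction, if called; Snai2 was named after its values were seen. Alternatives were other scalings and filters, limma 3.58.1 voom, DESeq2 1.42.0, terms for sex-linked RNA and detected genes (split at 28000), a replicate block and each library left out. Promoter windows are from RefSeq (GRCm38.p6), and no other coordinates are given because the deposited tables are on mm9. A further marker list is not reported here. The floor of 3 counts covers counting error only.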

Additional observations from a re-analysis of the deposited data

Results flagged for a closer look

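The KO effect differed between the lines, by the interaction term of the edgeR fit, for 6 of the 10 genes, all higher in the Pkd1 line, beside 13.9% of all genes. The difference of log2 fold changes, Pkd1 minus Cep120, was 3.01 for Inhbb, 2.67 for Inhba, 2.59 for Tgfb3, 2.41 for Fst, 1.15 for Tgfbr1 and 0.65 for Tgfbr2, whose call ended under 13 of 24 alternatives. In all 6 genes every Pkd1 KO library lay above every Pkd1 control, while in the Cep120 line this held for Inhba and Tgfbr2 alone. The Inhbb difference was 3.80 without Cep120 KO 2 and 3.602 without Pkd1 control 3.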

How the results depend on the processing

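The 8 calls in the Pkd1 line kept their direction under every alternative that gave a value, and they kept their call there except under the sex-linked terms. Fst had no value under the filter of 5 CPM in 3 libraries. The number of genes called there was 2002 with the Xist term and 4547 with the Y-linked term, against 8839, and of the 10 genes 4 and 5 were called. The Xist term takes its estimate from the Cep120 KO group, the only one in which Xist varied. In the Cep120 comparison DESeq2 called 21 genes, the fit without both replicate 3 controls 1, the unfiltered fit 344 with 1 of the 10 genes (Inhba), and leaving out single libraries 0 to 2.

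Several values that had not passed the test changed sign, among them the Cep120 values of Inhbb (1.10), Tgfb3 (0.54) and Fst (0.52) and the difference for Tgfb1 (-0.57). In the Cep120 comparison Smad7 (-0.00068) was at 0.11 with the deposited log2 CPM, 0.035 with a filter of 5 CPM in 3 libraries, 0.0019 with the libraries of the line alone, 0.40 with the Xist term, 0.072 with the Y-linked term, 0.018 under upper quartile scaling and -0.25 to 0.16 with a library left out. Tgfbr1 was at -0.023 without both replicate 3 controls, -0.024 with the Xist term, -0.10 with the Y-linked term, -0.034 with the detected-gene term and -0.024 to 0.17 with a library left out. Tgfb3 was at -0.026 and Inhbb at -0.17 with the Xist term, Tgfbr2 at -0.032 with the Y-linked term, and Fst at -0.51 from protein-coding transcripts. In the Pkd1 comparison Tgfb1 was at -0.62 with the Xist term, -0.42 with the Y-linked term, -0.029 under upper quartile scaling and -0.15 to 0.22 with a library left out. The difference for Tgfb1 was 0.26 from protein-coding transcripts, an alternative chosen after seeing the data. The causes were not tested.

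The median of all genes moved to 0.15 in the Cep120 comparison and 0.06 in the Pkd1 comparison with the deposited log2 CPM, and to -0.17 for the difference under upper quartile scaling. Retained introns took 39.5% of Fst in Pkd1 KO by TPM, against 14.2% by counts. With the replicate block, 8, 0 and 6 of the 10 genes were called for the Pkd1, Cep120 and difference comparisons, as without it. Deviations from the group mean were correlated between KO and control libraries of the same number. In the Pkd1 line r was -0.10, -0.04 and -0.14, and in the Cep120 line 0.18, -0.05 and 0.15. With 3 libraries a group this check cannot settle whether the numbers pair libraries, and no conclusion is drawn from it. The filter of 5 CPM also removed Tgfb1. Depth limits Tgfb1, with 14 to 55 counts a library.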
